A study of Mus musculus with 16 samples.

Results

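Mouse chromosomes are telocentric, so the sequenced part of each autosome begins next to its centromere, after a gap of satellite DNA that the assembly leaves as unknown bases. The H3K9me3 peaks described here are those on chromosomes 1 to 19 that end within the first 6 Mb of the chromosome. Each peak entered by position alone, but the windows were chosen with earlier results of these data known. The peaks numbered 3367 of 212313 H3K9me3 peaks in all, and a further 205356 peaks lay further in on the same chromosomes. The table of H3K9me2, the dimethyl form of the mark, held 971 regions in the same windows out of 47065.

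Chromatin came from whole crypt isolates of the small intestine of C57BL/6 mice, all males by the methods of the study, whose ages were not given in the sources used here. WT mice were compared with Smarcad1 KO mice, in which Cre under control of the Villin promoter cut a floxed allele. This promoter is active in the intestinal epithelium. Cells of the isolate that do not use it keep the gene, and ChIP values check neither the deletion nor the makeup of the isolate. Each mark had 3 WT and 3 KO libraries, made with an antibody to H3K9me3 (ab8898) or H3K9me2 (ab1220), and 1 input library without antibody per genotype.

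Pericentromeric heterochromatin is the classical site of H3K9me3. There the Suv39h methyltransferases place the mark on major satellite repeats, and HP1 proteins bind it and hold the chromatin compact. Smarcad1 is a SWI/SNF-like ATP-dependent remodeler that has been linked to the upkeep of heterochromatin and to the silencing of repeats. H3K9me2 is placed mainly by G9a and GLP and spreads over broad, gene-poor domains. Gene-poor ends and gene-rich ends therefore offer different surroundings for the same mark.

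Recovered H3K9me3 reads in peaks numbered between 7059092 and 11831624 per ChIP library, against 8838386 in the WT input and 8452186 in the KO input. H3K9me2 ChIP libraries held between 18986927 and 39080740 reads in regions. Values below are log2 read counts per peak after the authors matched the distributions of the 6 ChIP libraries, so each difference is one relative to the other peaks and says nothing of the overall level. Nothing in the labels says how the libraries were derived from single animals, so p-values measure the spread between these libraries.

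The sequenced end of chromosome 9 begins with satellite-like sequence. There, 10 peaks between 2999851 and 3037650 had more than 60% identical bases when the sequence was compared with itself at a distance of 234 bases, the repeat length of the mouse major satellite. This match reached 93.4% in the peak chr9:3034651-3035550. The first 3 units of that peak are printed from GRCm38, forward strand, to show what these peaks consist of. Capitals in the second and the third unit mark bases that differ from the unit before.
chr9:3034651-3034884: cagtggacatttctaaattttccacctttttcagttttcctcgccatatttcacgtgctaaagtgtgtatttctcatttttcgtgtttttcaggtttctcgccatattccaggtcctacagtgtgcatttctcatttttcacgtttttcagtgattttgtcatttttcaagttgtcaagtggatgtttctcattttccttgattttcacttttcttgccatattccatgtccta
chr9:3034885-3035118: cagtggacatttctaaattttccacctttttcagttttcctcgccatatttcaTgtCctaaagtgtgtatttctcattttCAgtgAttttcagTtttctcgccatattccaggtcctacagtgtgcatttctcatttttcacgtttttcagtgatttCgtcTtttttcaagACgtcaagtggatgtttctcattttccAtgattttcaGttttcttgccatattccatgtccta
chr9:3035119-3035352: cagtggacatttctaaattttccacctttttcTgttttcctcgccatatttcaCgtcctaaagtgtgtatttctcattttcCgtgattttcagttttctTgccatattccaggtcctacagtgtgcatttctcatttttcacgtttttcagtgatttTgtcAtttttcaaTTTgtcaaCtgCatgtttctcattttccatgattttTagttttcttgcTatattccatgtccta
The second unit differed from the first at 12 bases and the third from the second at 13, and their GC content was 35.9% and 34.2%. GENCODE M21 places the stretch in exons of Gm17535 (forward strand) and of the non-coding RNA Gm26870 (reverse strand). Only 7 of the 205356 peaks further in passed the same 60% limit.

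**Figure D1:**
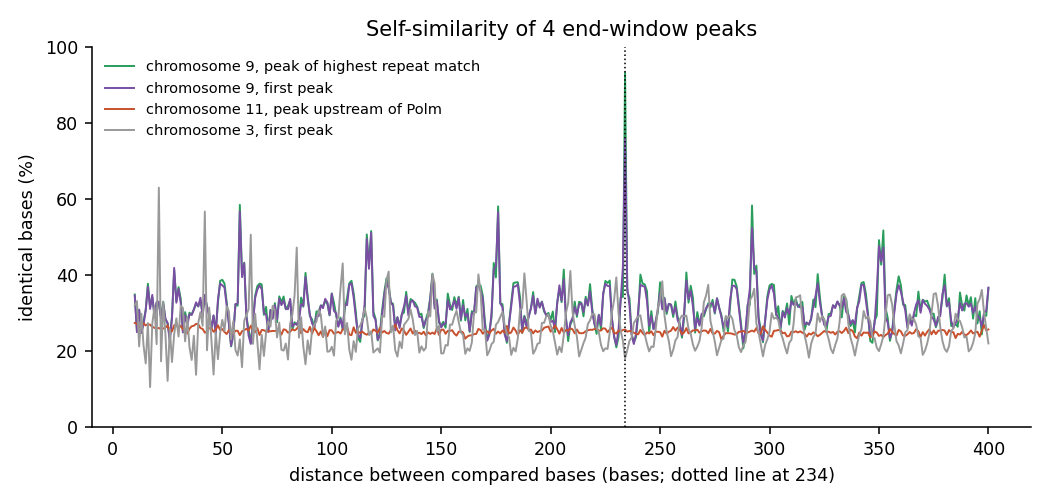
Share of identical bases (%, vertical axis) when a peak is compared with itself at each distance from 10 to 400 bases (horizontal axis), for 4 peaks of the end windows. The 2 peaks of chromosome 9 spike at 234 bases, up to 93.4%, the first peak of chromosome 3 at 21 bases, and the peak upstream of Polm shows no spike.

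Another kind of tandem repeat opened chromosome 3. Its first peak, chr3:3000151-3004650, matched itself best at a distance of 21 bases, with 63.1% identical bases. The stretch of that peak with the closest match held 73 identical bases of 84 compared and is shown with every other unit in capitals (GRCm38, forward strand, intergenic).
chr3:3001786-3001890: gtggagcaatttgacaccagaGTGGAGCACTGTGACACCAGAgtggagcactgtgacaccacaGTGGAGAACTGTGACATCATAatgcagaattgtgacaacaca

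The satellite-like peaks of chromosome 9 were strongly marked and none passed the test. Over the 10 peaks, which cover 27.45 kb, the mean log2 value was 7.064, 7.269 and 6.866 in the WT libraries and 6.827, 7.290 and 7.002 in the KO libraries, where the median over all peaks of the windows was 4.88. The groups overlapped fully, and the difference of -0.03 had an exact two-sided permutation p of 0.8 (n = 3 in each genotype). None of the 10 was called, the changes ran from -0.38 to 0.33, and the smallest limma adjusted p was 0.317. The first peak, chr9:2999851-3005400, read 9.70, 9.99 and 9.57 in WT and 9.57, 9.96 and 9.98 in KO. Its neighbour chr9:3005551-3008100 was also 1 of the 5 peaks with the most input per length, at 162.0 reads per kb in the WT input and 192.5 in the KO input. The 10 peaks had a median log2 ChIP over input of 1.11 (WT) and 1.18 (KO). In 3 of the 10 peaks the counts behind these values had to be extrapolated. The median change of -0.06 moved to 0.07 without KO replicate 1, where 2 of these peaks passed the threshold, to -0.21 without KO replicate 2 and to -0.13 without WT replicate 3. Without WT replicate 2, 1 peak passed, and with the input ratio taken off the KO libraries 4 did. The authors kept reads above a mapping quality limit, and which satellite copies the reads of these peaks came from was not tested. The unsequenced arrays were not analysed here.

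In KO, 169 of the 3367 peaks (5.02%) were lower and 0 were higher (limma over all 212313 peaks, Benjamini-Hochberg adjusted p under 0.05). Among all peaks tested, 2.46% were called lower, 0.252% higher and 2.71% in either direction. At an unadjusted p under 0.05, 467 peaks of the windows were lower and 60 higher, for which the share over all peaks is not given here. DESeq2 on recovered reads called 91 lower (2.70%, against 1.07% of all peaks) and 0 higher. With edgeR and TMM, 190 were lower (5.64%, against 2.76% of all peaks) and 0 higher. Leaving out KO replicate 1 gave 4 higher peaks, WT replicate 2 gave 4 and KO replicate 3 gave 1. With the input ratio taken off the KO libraries, 661 peaks were lower and 284 higher, beside 24359 lower and 31304 higher among all peaks. All 3 KO values lay below all 3 WT values in 15.2% of the peaks in the windows, against 8.21% of all peaks. The opposite order was seen in 4.13%, against 7.3% of all peaks.

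The shift was small but visible in each library. The median over the windows minus the median further in was -0.08, -0.09 and -0.08 (log2) for the WT libraries and -0.20, -0.19 and -0.18 for the KO libraries. All KO libraries lay below all WT libraries. The difference between genotypes was -0.10, with an exact two-sided permutation p of 0.1, the smallest that 3 libraries against 3 can give. The median change per peak was -0.07 in the windows, 0.03 further in and 0.00 between 6 and 12 Mb.

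Signal over input told the same order. The median over the windows of the log2 share of ChIP reads over the share of input reads was 0.11, 0.07 and 0.10 in WT and 0.01, -0.05 and -0.06 in KO, again without overlap (difference of -0.13, exact permutation p = 0.1, the smallest possible). Further in it lay between -0.09 and -0.06 in WT and between -0.04 and 0.00 in KO. Being ratios of shares, they sit near 0 for a typical peak, and each genotype had 1 input. The KO input itself held slightly more reads in the windows (2.09% of its reads) than the WT input (1.98%), while the ChIP libraries held from 2.21% to 2.35% in WT and from 2.06% to 2.13% in KO. The part of this input difference in the ratios was not tested.

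Read density takes the same values per kb of peak, so its order of the genotypes is no separate result. The median log2 reads per kb of the windows exceeded that of peaks further in by 0.13, 0.07 and 0.11 in WT, and the same difference was 0.01, 0.00 and -0.01 in KO. Over the 6 libraries together the excess of 0.05 ± 0.06 (SD) did not pass an exact sign-flip permutation test (p = 0.125). In the inputs the difference was -0.06 (WT) and 0.00 (KO).

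**Figure D2:**
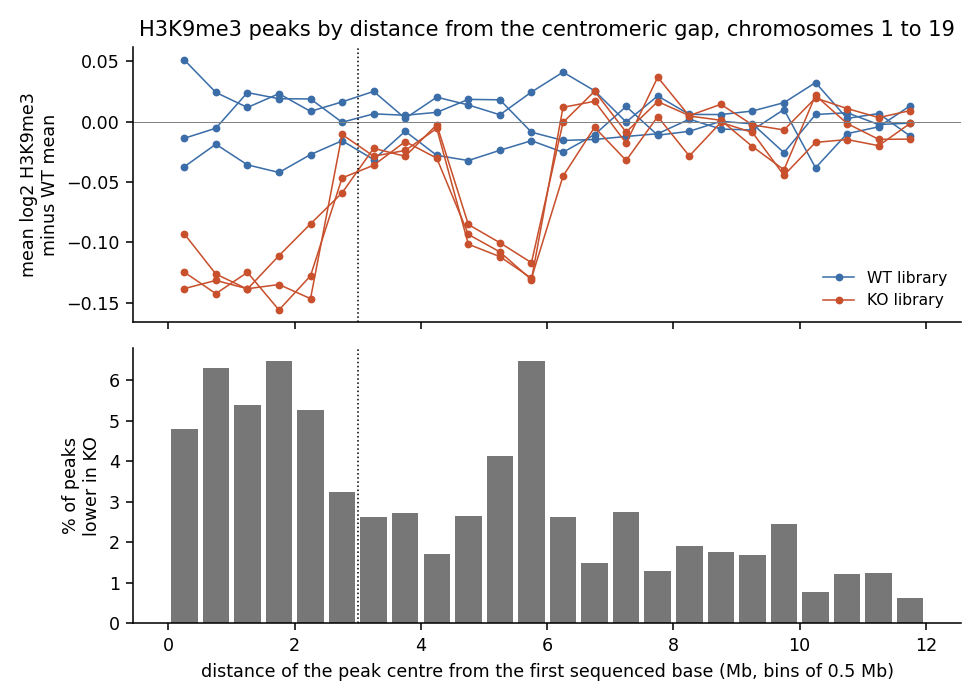
Mean log2 H3K9me3 per library minus the WT mean (upper panel) and the share of peaks lower in KO (%, lower panel) for peaks of chromosomes 1 to 19 in bins of 0.5 Mb from the first sequenced base; the dotted line stands at 3 Mb, near the window limit. KO libraries run below WT in the first 2.5 Mb and again between 4.5 and 6 Mb, and lie closer to the WT libraries from 6 Mb to the right edge at 12 Mb.

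The share of lower peaks did not fall evenly with distance from the centromere. From the first sequenced base, 4.80% of peaks were lower in the first 0.5 Mb and between 5.27% and 6.47% in each of the next 4 bins of 0.5 Mb. The share was 3.25% between 2.5 and 3 Mb, where the windows end on this scale. Beyond the windows it was 1.71% between 4 and 4.5 Mb and 6.47% between 5.5 and 6 Mb. It stayed at or below 3.46% from 6 to 18 Mb and was 9.35% between 18 and 18.5 Mb, 4.57% in the next bin and 6.49% between 19 and 19.5 Mb. The highest share within 20 Mb thus lay far from the ends, and between 18 and 19 Mb all KO means were below all WT means. The bins pool chromosomes that contribute unequal numbers of peaks. At the edge of the windows, the 19 last peaks inside had a median change of -0.15 and the 19 first peaks outside one of -0.27. The 830 peaks in the last 0.5 Mb inside had a median of -0.01 with 3.73% lower, and the 1008 peaks in the first 0.5 Mb outside one of 0.01 with 2.58% lower.

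The chromosome ends differed widely in how much of their sequence lay under H3K9me3 peaks. Peaks covered 43.8% of the sequenced window on chromosome 3 and 31.5% on chromosome 9, against 18.6% and 11.1% of the same chromosomes further in. Chromosome 1 had 23.1%. The gene-rich end of chromosome 19, with 120 protein-coding genes, had 1.76%, chromosome 2 had 3.26% and chromosome 17 had 2.23%. On chromosome 14 the window held only 4 peaks and 0.1% of covered sequence, against 20.8% further in. Signal over input of the single peaks ran in another order: its WT median (log2) was -0.08 on chromosome 3, -0.03 on chromosome 1 and 0.02 on chromosome 9, and 0.53 on chromosome 11, 0.44 on chromosome 19 and 0.35 on chromosome 2.

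The change differed between the ends as well, and across the 19 ends it ran with the share of sequence under peaks (Pearson r = 0.609, Spearman rho = 0.742, as a description). The end of chromosome 11 fell most by its mean. It stood at 5.83, 5.71 and 5.79 in WT and at 5.08, 5.30 and 5.24 in KO (59 peaks, difference of -0.57), and 20 of its peaks, or 33.9%, were called lower. Chromosome 19 differed by -0.45 (7 of 45 peaks called lower) and chromosome 2 by -0.44 (15 of 71). The end of chromosome 3, with the most sequence under peaks, stood at 5.17, 5.22 and 5.21 in WT and at 5.20, 5.21 and 5.20 in KO, and 4 of its 605 peaks were called. Chromosome 9 differed by 0.01 with 4 of 461 called, chromosome 1 by -0.05 with 6 of 377, chromosome 10 by -0.02 with 1 of 214 and chromosome 12 by 0.00 with 4 of 184. Among all peaks 2.46% were called lower. Further in, the shares were 4.09%, 5.33% and 2.39% on chromosomes 11, 19 and 2. On chromosomes 3, 9, 1, 10 and 12 they were 2.09%, 4.09%, 1.93%, 2.96% and 1.49%. At similar coverage, of 12.3% on chromosome 10, 10.4% on 12, 11.5% on 13 and 10.1% on 18, the latter pair differed by -0.26 and -0.22. Most calls came from chromosomes 13 (23), 11 (20), 8 (19), 2 (15) and 4 (15).

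In 12 of the 19 chromosomes all KO means lay below all WT means, in 7 the groups overlapped and in 0 KO lay above. Each of the 12 had an exact permutation p of 0.1, and the Benjamini-Hochberg value over the 19 chromosomes was 0.158, so no single end passed the threshold. The median change of the end lay below that further in on the same chromosome in 18 of 19, with chromosome 9 as the exception. The share of peaks called lower was above that further in on 15 of 19, and below it on chromosomes 1, 3, 9 and 10. At least 1 lower peak was found on each of the 19 ends.

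**Figure D3:**
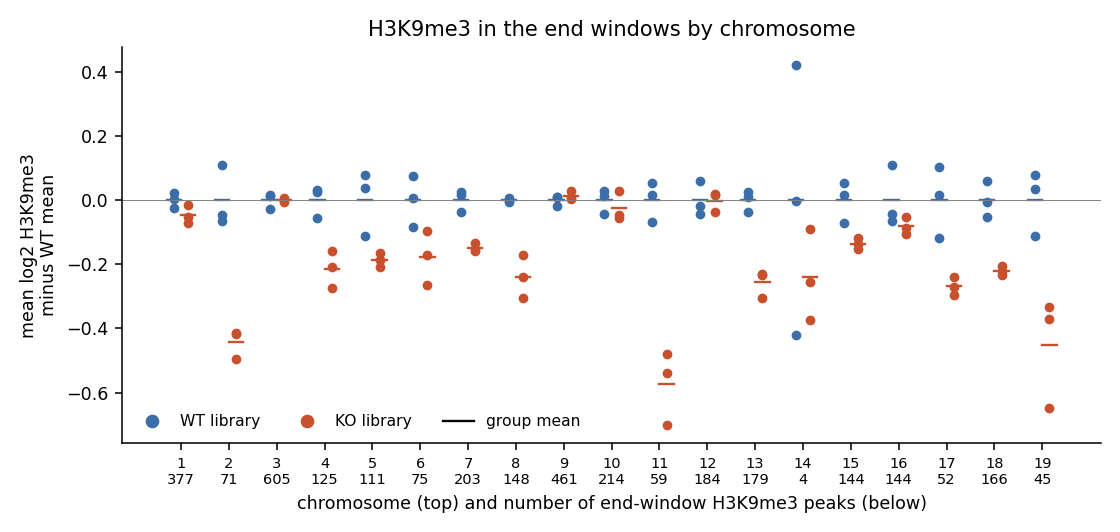
Mean log2 H3K9me3 over the end-window peaks of each chromosome, as each library minus the WT mean (points; short lines are group means), with the number of peaks under each chromosome. KO libraries lie far below WT on chromosomes 2, 11 and 19 and overlap them on chromosomes 3, 9, 10 and 12; chromosome 14 rests on 4 peaks.

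H3K9me2 coverage also differed between the ends. Regions of this mark covered 70.7% of the window on chromosome 3, 69.5% on chromosome 9 and 64.9% on chromosome 1, and 0.114% on chromosome 11, 1.75% on chromosome 19 and 4.99% on chromosome 2. Across the 19 ends this share ran with the H3K9me3 change (Pearson r = 0.727, Spearman rho = 0.647). The change also ran with peaks per Mb (r = 0.673, rho = 0.801), against the GC content of the window (r = -0.64, rho = -0.539) and against the number of protein-coding genes (r = -0.502, rho = -0.375). These are descriptions over 19 points that share libraries, and the measures also run with each other.

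Of the 3367 peaks, 2354 overlapped an H3K9me2 region and 33 of them (1.40%) were lower in KO, whereas 136 of the 1013 peaks outside such regions (13.4%) were lower. The split was made after earlier results were seen, and it uses a mark measured in other libraries. Outside, the mean log2 value was 5.21, 5.14 and 5.18 in WT and 4.84, 4.94 and 4.90 in KO, a difference of -0.28 without overlap (exact permutation p = 0.1). Inside, it was 5.08, 5.03 and 5.07 in WT and 5.05, 5.02 and 5.01 in KO, a difference of -0.03 with overlap (exact permutation p = 0.2). The value outside minus that inside was 0.12 ± 0.01 for WT and -0.13 ± 0.07 for KO libraries (SD, n = 3 each; difference of -0.25, exact permutation p = 0.1). On all 16 ends with at least 10 peaks of each kind, the median change was lower outside than inside. Chromosomes 2, 11 and 14 did not reach that number. On chromosome 11 the order was reversed, with a median of -0.81 over 2 inside peaks and of -0.58 over 57 outside.

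Peaks further in showed the division at a lower level. There 6.80% of peaks outside H3K9me2 regions and 0.516% of those inside were lower. Peaks outside at the ends exceeded peaks outside further in by 0.16, 0.09 and 0.13 in WT and stood 0.09, 0.03 and 0.05 below them in KO. This difference of -0.18 had no overlap between genotypes (exact permutation p = 0.1). Inside peaks had a difference of the same sign: those at the ends stood 0.07, 0.12 and 0.09 below inside peaks further in for WT and 0.16, 0.17 and 0.18 below them for KO, a difference of -0.08, also without overlap (exact permutation p = 0.1). Outside peaks of the windows had a median GC content of 42.8% against 41% inside, and of 39.6% for outside peaks further in. The part of base composition in the result was not tested.

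**Figure D4:**
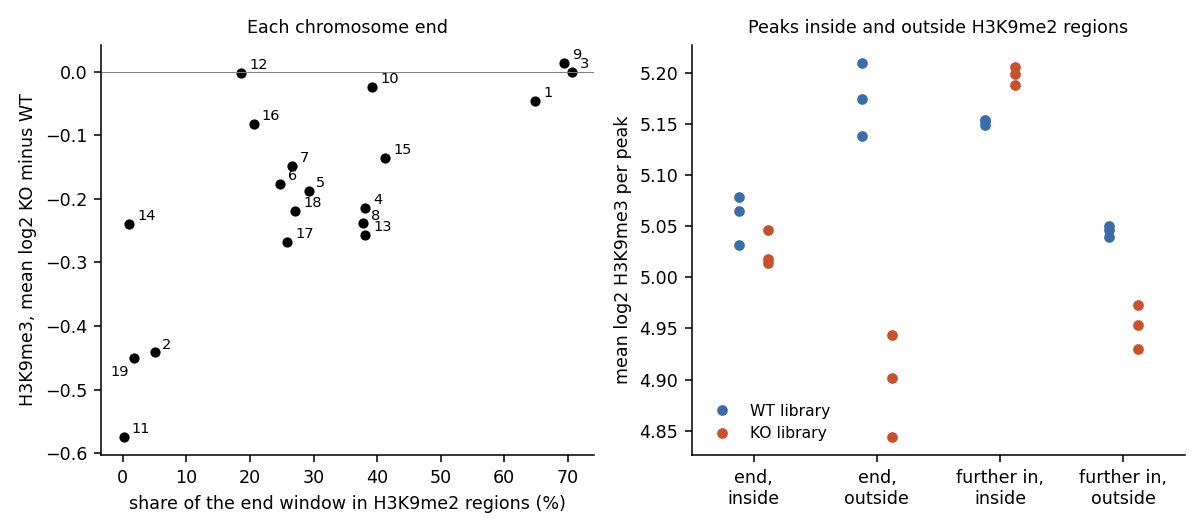
Left, H3K9me3 change (mean log2 KO minus WT) of each chromosome end against the share of its sequenced window in H3K9me2 regions (%); labels are chromosomes. Right, mean log2 H3K9me3 per library for peaks inside and outside H3K9me2 regions, at the ends and further in; WT and KO stand farthest apart for end peaks outside, 5.14 to 5.21 against 4.84 to 4.94.

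The 10 lower peaks of smallest p lay between genes, and none overlapped an annotated gene. The first, chr11:5840101-5844750, lay 2085 bp upstream of Polm, which codes for DNA polymerase mu, an enzyme of end joining. Its log2 values were 7.61, 7.47 and 7.51 in WT and 5.51, 5.96 and 5.75 in KO. All WT libraries stood far above KO, with a log2 change of -1.79 (SE 0.13, limma adjusted p = 6.08e-14), and the inputs held 84 (WT) and 96 (KO) reads.

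The central 300 bases of the 3 peaks of smallest p are shown (GRCm38, forward strand, all intergenic), to set beside the satellite units, and at no distance from 20 to 400 bases did more than 28.1% of the bases of these peaks match. Capitals mark CpG.
chr11:5842275-5842574: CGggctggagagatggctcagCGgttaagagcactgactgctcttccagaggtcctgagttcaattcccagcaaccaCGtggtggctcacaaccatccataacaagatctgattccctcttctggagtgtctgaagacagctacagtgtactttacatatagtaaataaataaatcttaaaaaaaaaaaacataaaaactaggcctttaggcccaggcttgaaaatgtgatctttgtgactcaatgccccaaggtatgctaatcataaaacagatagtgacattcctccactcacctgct
chr19:4026975-4027274: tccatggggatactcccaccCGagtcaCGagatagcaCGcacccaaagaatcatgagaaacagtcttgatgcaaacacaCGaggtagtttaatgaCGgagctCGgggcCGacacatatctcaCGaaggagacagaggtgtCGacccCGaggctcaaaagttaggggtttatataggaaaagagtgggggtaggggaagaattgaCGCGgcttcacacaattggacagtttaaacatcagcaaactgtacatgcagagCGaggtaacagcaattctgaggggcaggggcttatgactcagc
chr11:3282075-3282374: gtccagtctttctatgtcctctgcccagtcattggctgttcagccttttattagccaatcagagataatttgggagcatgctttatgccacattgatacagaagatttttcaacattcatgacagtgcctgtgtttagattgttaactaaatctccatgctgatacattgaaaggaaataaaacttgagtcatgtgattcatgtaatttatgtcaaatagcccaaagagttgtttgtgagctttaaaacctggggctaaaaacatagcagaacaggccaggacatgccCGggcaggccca
They held 3, 13 and 1 CpG, and their GC content was 43%, 50.3% and 40.7%.

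The second peak, chr19:4025701-4028550, lay 6857 bp downstream of Gstp1, a glutathione transferase of detoxification. It read 7.43, 6.89 and 7.21 in WT and 5.72, 5.66 and 5.59 in KO (change of -1.52, SE 0.14, limma adjusted p = 8.95e-11). The third, chr11:3280501-3283950, lay 4924 bp upstream of Patz1, which codes for a zinc finger transcription factor. It read 7.38, 7.54 and 7.57 in WT and 6.36, 6.46 and 6.16 in KO (change of -1.17, SE 0.12). In both, the groups stood well apart.

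A pair of the 10 lay among the aldo-keto reductase genes of chromosome 13, which code for steroid-converting enzymes. The peak chr13:4179601-4182600, 8550 bp upstream of Akr1c13, stood at 7.18, 7.46 and 7.54 in WT and at 5.91, 6.36 and 6.18 in KO (change of -1.25). The peak chr13:4124251-4128750, 3865 bp downstream of Akr1c18, stood at 8.09, 7.89 and 7.84 in WT and at 6.78, 7.17 and 7.15 in KO (change of -0.91). Among the genes with more than 1 lower peak, named here after their values were seen, were also Akr1c14 with 2 of 5 peaks, Svil, an actin-binding protein, with 2 of 3, and Ghr, the growth hormone receptor, with 2 of 5.

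The other 5 of the 10 lay near Crebbp (a histone acetyltransferase; 32504 bp upstream, change of -1.25), Cdip1 (6859 bp upstream, -1.27), Phyh (a peroxisomal enzyme of fatty acid oxidation; 4071 bp downstream, -1.18), Zfp958 (a zinc finger gene; 9217 bp upstream, -1.33) and Asxl2 (a Polycomb-associated gene; 22499 bp downstream, -0.88). In each of them all KO libraries lay below all WT libraries. Input reads of the 10 peaks ran from 48 to 101 in WT and from 56 to 96 in KO.

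**Figure D5:**
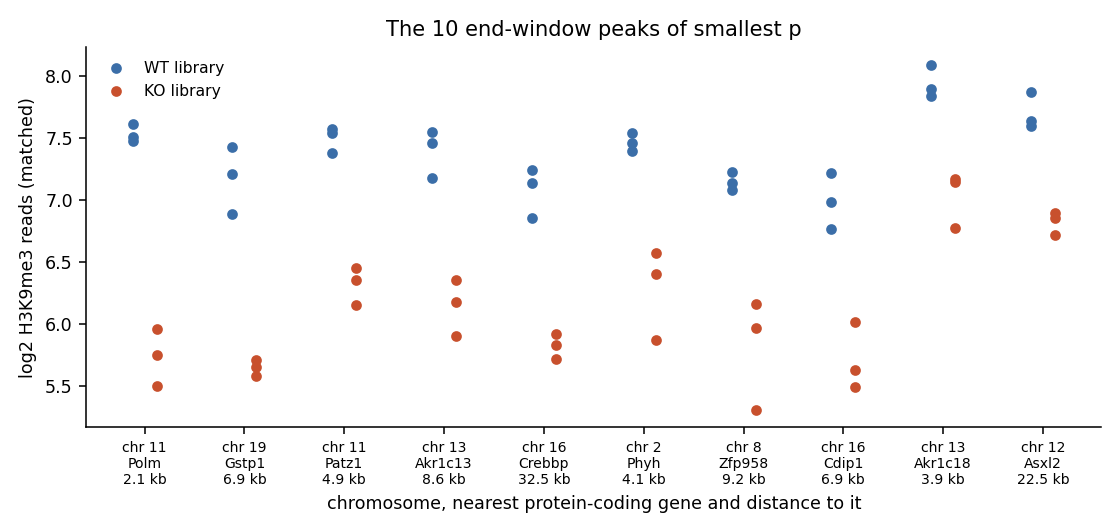
Log2 H3K9me3 reads (distributions matched) in each WT and KO library for the 10 end-window peaks of smallest p, labelled by chromosome, nearest protein-coding gene and distance to it. In each peak the 3 KO libraries lie below the 3 WT libraries; the widest separation is upstream of Polm.

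Among all 169 lower peaks, 88 had no gene within 5 kb, 52 overlapped a gene and 29 lay within 5 kb of one. The changes ran from -1.97 to -0.30, with a median of -0.80, and 44 were at least 1 in size. Lower peaks were wider than the others of the windows (median of 2250 against 1200 bp), which are widths and values from the contrast that chose them and are given without a test. The KO input share was below the WT input share in 73 of the 169.

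By gene names, 281 peaks of the windows were annotated to predicted genes (Gm), of which 15 (5.34%) were lower against 3.77% of such peaks further in, and 73 to cDNA clones (Rik), of which 7 (9.59%) were lower against 5% further in. Vomeronasal receptor genes, which detect pheromones in the nose and form clusters at some ends, had 52 peaks with 1 lower (1.92%), against 0.758% further in. Olfactory receptor genes had 10 peaks and zinc finger genes of the Zfp kind 10, each with 0 lower and a median change of -0.13. Further in, 1.09% and 7.13% of such peaks were lower, so 10 peaks are too few to tell these groups from the rest. All other named genes had 824 peaks with 58 lower (7.04%), against 4.025% further in. The 2115 peaks with no gene within 5 kb had 88 lower (4.16%), against 1.599% further in.

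Some long genes carried many peaks. Gucy1a2, a guanylate cyclase subunit on chromosome 9, had 95 peaks with 0 called lower and a median change of 0.10. Its mean log2 value was 5.03, 5.05 and 5.05 in WT and 5.13, 5.11 and 5.10 in KO. Syne1, a nuclear envelope protein on chromosome 10, had 81 peaks, Xkr4 on chromosome 1 had 53, the glutamate receptor gene Gria4 on chromosome 9 had 39 and the estrogen receptor gene Esr1 on chromosome 10 had 34, each with 0 lower. They were picked for their number of peaks and not for their change. Over all peaks of the windows 5.02% were lower, but on the ends of chromosomes 9, 10 and 1 the shares were only 0.868%, 0.467% and 1.59%. Whether these genes differ from their own ends was not tested.

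The peaks nearest to the chromosome starts had counts near those of the windows as a whole. Of these 19, 13 had a negative change and 1 was called, where 59.99% of all peaks of the windows were negative and 5.02% were called lower. The call, chr11:3099751-3113100, rested on 1 library: its values were 12.34 in WT replicate 1 but 9.85 and 9.99 in the other WT libraries, and 9.53, 9.86 and 9.75 in KO. Its change was -1.02 (limma adjusted p = 0.00699) and -0.21 (adjusted p = 0.233) without WT replicate 1. The WT input also stood high there, with 2093 reads against 477 in the KO input, and with the input ratio taken off the KO libraries the change was 1.05. All 6 counts at this peak were extrapolated.

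The next peak on the chromosome, chr11:3126751-3200250, was the largest value of the table in every library and therefore equal in all 6 by the matching of distributions. It spans 73500 bp over the whole of Sfi1 and parts of Drg1 and the pseudogene Pisd-ps1, and its input held 42726 (WT) and 47209 (KO) reads, so that no change of the mark could be read from it. The others of the 5 peaks richest in input were chr3:5859451-5861100, chr2:3964201-3964800 and chr2:5378851-5379600, the last within Camk1d. None of these 5 was called, and their changes ran from 0.00 to 0.29.

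The peaks with the highest ChIP over input of each chromosome were mostly narrow and poor in input reads. Of these 19 peaks, 0 were called, which is near the 5.02% of the windows, 9 had a negative change, and 15 lay at least 90% in repeats as masked in the genome file. In 16 of them both inputs had fewer than 10 reads, so the ratios are imprecise. The highest, chr11:5362351-5363550 within an intron of Znrf3, which codes for a ubiquitin ligase that restrains Wnt signaling in crypts, read 4.94, 5.67 and 5.43 in WT and 5.26, 5.48 and 5.64 in KO. Its log2 ChIP over input reached 3.18 for WT and 1.78 for KO, with 3 WT and 10 KO input reads. Its central 300 bases (GRCm38, forward strand, wholly masked as repeat, CpG in capitals) are shown as an example of a masked repeat that did not pass the test.
chr11:5362800-5363099: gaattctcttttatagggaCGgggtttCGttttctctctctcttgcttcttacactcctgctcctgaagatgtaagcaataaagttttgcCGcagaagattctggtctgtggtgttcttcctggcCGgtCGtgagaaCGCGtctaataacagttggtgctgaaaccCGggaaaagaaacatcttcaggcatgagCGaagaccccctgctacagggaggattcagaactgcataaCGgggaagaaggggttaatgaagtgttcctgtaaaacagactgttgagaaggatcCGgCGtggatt

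Pooled over chromosomes, peaks of the windows held more repeat sequence than peaks further in. A median of 61.3% of a peak was masked as repeat, against 34.5% further in, and 22.8% of peaks against 9.95% were masked over more than 90% of their length. Not every end shared this: the medians on chromosomes 10 (33.8%) and 12 (22.9%) were not above 34.5%. Taken as whole sequence, the windows of chromosomes 2, 6, 11, 12 and 17 were less masked than the rest of their chromosome. The telomere-type motif TTAGGG, searched on both strands in the central 300 bases, was found in 11.6% of the windows' peaks and in 11.5% of those further in. The CENP-B box, searched on either strand, which marks the minor satellite, was found in 0 of 3367 central stretches and in 6 of 205356 further in.

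For H3K9me2, 1 of the 971 regions of the windows was called lower and 0 higher (edgeR quasi-likelihood over all 47065 regions, Benjamini-Hochberg adjusted p under 0.05), and 0.00212% of all regions were called lower and 0% higher. DESeq2 gave the same counts in the windows. Before adjustment, 32 regions (3.30%) had a p under 0.05 as lower and 18 (1.85%) as higher, where all regions had 1.52% and 1.6%. The median of the windows minus that further in was 0.06, 0.00 and 0.05 in WT and 0.01, 0.05 and 0.05 in KO, with overlap (exact permutation p = 1).

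More of the nominally lower regions came from chromosome 18 than from any other end. There, 17 of 86 regions fell below an unadjusted p of 0.05 as lower and 0 as higher, and outside chromosome 18 the windows had 15 lower and 18 higher. The called region spans 49050 bp from 3810001 (change of -0.37, edgeR adjusted p = 0.0284). The call was lost in 5 of the 6 fits without 1 library (largest adjusted p = 0.437), and over all alternatives the change ran from -0.40 to -0.34. It held 1811, 1312 and 1216 reads in WT and 1795, 890 and 1883 in KO, or 5.97, 5.86 and 5.93 against 5.52, 5.55 and 5.59 as log2 CPM. All KO values lay below WT, and both inputs were alike at 615 and 616 reads. Between 3.5 and 4.5 Mb, a stretch marked off after its values were seen, 15 of 27 regions had such a p, all as lower, with a median change of -0.25. Among them were the region over Lyzl1, a lysozyme-like gene (-0.24), and regions from 3876601 (-0.25) and 3934501 (-0.36), neither of them called. Without WT replicate 1, which stood apart from the other WT libraries, 7 of the 27 were lower and the median was -0.17. Without KO replicate 3, which stood apart from the other KO libraries, 8 were lower and the median was -0.24. From the first to the last of these 15 regions there were 46 H3K9me3 peaks, of which 3 were called lower, with a median change of -0.22. This is near the whole end of chromosome 18, where 13 of 166 peaks (7.83%) were called lower with a median change of -0.18.

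The second region by p, from 3915301 on chromosome 8 over the lectin genes Cd209b and Cd209c, changed by -0.30 but was not called (edgeR adjusted p = 0.804). Its log2 CPM values were 5.55, 5.45 and 5.34 in WT and 5.15, 5.20 and 5.13 in KO, without overlap. The 2 regions with the smallest p in the upward direction lay on chromosome 13, with changes of 0.93 and 1.15 on few reads. On chromosome 9 the first H3K9me2 region started at 3061051, beyond the satellite-like peaks. The 34 H3K9me2 regions that overlapped a lower H3K9me3 peak had a median change of 0.03, against -0.01 for all regions of the windows. In 6 of the 34 (17.65%) all KO values lay below all WT values, against 6.69% in the windows. At an unadjusted p under 0.05, 3 of the 34 were lower and 2 higher.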

How the data were processed

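ChIP-seq libraries for H3K9me3 and H3K9me2 (3 WT, 3 KO and 1 input per genotype for each mark) were grouped by their titles. Per the labels and the methods of the study, reads were trimmed with Trim Galore 0.4.4, mapped to GRCm38 with Bowtie2 2.3.2, filtered on mapping quality, freed of duplicates and quantified in SeqMonk over MACS peaks called on all ChIP libraries of a mark together against both inputs. The H3K9me3 values deposited by the authors are log2 reads of each peak, never under 1 read, with matched distributions, and those of the inputs are log2 reads without matching. The H3K9me2 signal deposited by the authors is the mean number of reads per MACS peak of a region, which gave whole reads when multiplied by the number of peaks (largest deviation of 0.00114). A shorter table of H3K9me2 read counts deposited by the authors served as a check of these sums. A shorter H3K9me3 table, which lists peaks past the authors' own test, was not used, nor were 8 columns of standard deviations.

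H3K9me3 was tested with limma 3.58.1 (trend) on the log2 values and H3K9me2 with edgeR 4.0.16 (quasi-likelihood, TMM) on the sums. Both were fitted over the whole table with genotype alone, two-sided, without a filter on low values, at a Benjamini-Hochberg adjusted p under 0.05. DESeq2 1.42.0, R 4.3.3 and Python 3.11.15 were also used. H3K9me3 reads were recovered from the order of the values within each library (99.9% of peaks within 0.002 on the log2 scale; 52 peaks of the windows had an extrapolated count in at least 1 library). All 3367 peaks were tested, and 2744 had a mean log2 value of at least 4. Over input is log2 of the share of reads with 1 read added, minus the same in the input of the genotype. Library summaries were compared by exact permutation tests over libraries. Over input values rest on 1 input per genotype, and the counting error of that input is not part of any interval or test. Genes came from the deposited annotation and from GENCODE M21, positions relative to genes from GENCODE strands, and sequences and repeat masking from the RefSeq GRCm38 genome.

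Peaks named were the 10 of smallest p past the threshold, the peak nearest the start and the peak highest over input on each chromosome, the 5 peaks with the most input reads per kb, and the H3K9me2 regions called or, in a direction without calls, the 2 of smallest p. The windows and lists were chosen with earlier results of these data known. The fits were tested on simulated data. Alternatives were other tests, normalizations, filters, thresholds and windows, an input correction, leaving out each library, and a replicate block.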

Additional observations from a re-analysis of the deposited data

How the results depend on the processing

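The 169 lower peaks became 91 with DESeq2 on recovered reads and 355 with a window of 10 Mb (118 with 5 Mb), and the 0 higher peaks became 4 with 10 Mb. With the input ratio taken off the KO libraries there were 661 lower and 284 higher, beside 24359 lower (11.5%) and 31304 higher among all peaks, a correction that carries the error of the unreplicated inputs into each KO value. Leaving out 1 library gave from 119 (without WT replicate 1) to 164 lower and from 0 to 4 higher peaks. Counts chosen after seeing the data were 149 lower without chromosome 11, 146 without chromosome 13 and 153 among peaks whose inputs lay within 1.5 times. Peaks outside H3K9me2 regions gave from 76 to 152 lower, and those inside from 15 to 38, over the 11 fits other than the input correction, which gave 351 (34.7%) and 310 (13.2%).

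Between genotypes, the difference of the windows from peaks further in kept its sign in each alternative. Read density passed the sign-flip test with a window of 5 Mb (0.0704) and against peaks between 6 and 12 Mb (0.0538), both at the smallest p that 6 libraries allow. The H3K9me2 difference, -0.001, turned to 0.013 without WT replicate 1, 0.004 without WT replicate 3 and 0.013 without KO replicate 1, all within the spread of the libraries, ran from -0.019 to 0.013 when 1 library was left out and was -0.035 with a window of 5 Mb (exact permutation p = 0.2). The single H3K9me2 call was 0 at an adjusted p under 0.01 and outside chromosome 18, and ranged from 0 to 1 with single libraries removed (0 without WT replicate 2 or 3 or any KO replicate). Nothing in the labels says whether WT and KO libraries of one replicate number belong together. The correlation of deviations between WT and KO libraries of one number was -0.01, 0.01 and -0.01 (H3K9me3) and 0.18, 0.02 and 0.08 (H3K9me2). Between libraries of different numbers it ran from -0.02 to 0.03 (H3K9me3) and from -0.13 to 0.07 (H3K9me2). With the replicate block there were 168 lower and 0 higher H3K9me3 peaks and 5 lower H3K9me2 regions, 3 of them on chromosome 18. The 10 named peaks kept their call in all 12 alternatives. The cause of these changes was not tested.

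A window of 10 Mb adds peaks, so its counts grow by construction. The median change over all peaks stayed between 0.01 and 0.03 in the 11 fits. A median peak held 23 to 38 reads per library, and no exact test of 3 libraries against 3 can pass 0.05. Unsequenced satellite arrays were not analysed here.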
